A study of Mus musculus with 4 samples.

Results

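The regions described here are distal stretches of open chromatin that were listed in 3 of 4 retinal endothelial libraries and absent from the list of the remaining one, control 1. They were chosen by the measured peak calls: peaks of the 4 lists that overlapped or touched on the 19 autosomes and X were merged, and a merged region was kept if Zeb1-CKO 1, Zeb1-CKO 2 and control 2 each had a peak in it, control 1 had none, and it lay more than 1 kb from both ends of every protein-coding gene. Of 25263 merged regions in all, 15780 were distal and 1778 had this pattern. The pattern made up 11.3% of distal regions and 16.6% of all regions, and since it is the rule itself, nothing is read from those shares.

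The study examined chromatin accessibility in FACS-purified endothelial cells of mouse retina, with 2 libraries labelled Zeb1-CKO in their titles (genotype given as Zeb1 knockdown) and 2 labelled control. Both groups were C57BL/6 and labelled P16, and each library was made from 2000 sorted cells, per the labels' protocols. The labels used here name no allele, no Cre driver and no inducing agent, and whether each library had its own animal, or its own pool of animals, is not stated in them, so differences between libraries may be technical. Accessibility was measured by ATAC-seq, which uses a transposase to place sequencing adapters into open DNA.

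Open chromatin away from gene ends is known to include enhancers, short elements bound by transcription factors that act on genes at a distance. Their use differs more between cell types than that of promoters, and in endothelial cells factors of the ETS, SOX, FOX, GATA and KLF families are known to bind them. Zeb1 is a zinc-finger factor that binds E2-box sequences and is known as a repressor of epithelial genes. Insulators and promoters that an annotation places inside a gene also appear among distal regions.

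Some of the regions with the strongest peaks were such internal promoters. The outer limits of a gene decided what was distal. A further RefSeq table gave start windows (250 bases before and 50 after a listed start, GRCm38.p6, not complete), and 327 of the 1778 regions (18.4%) overlapped one. Of these, 248 overlapped a window of a protein-coding gene and 79 that of a noncoding gene alone. Any overlap was counted and is called holding a start below, though the start base itself can lie outside the region. The 4 sequences below are the 250 bases upstream of the listed start in 4 of the 20 best-placed regions. Each lies wholly inside its merged region, though a single library's peak can cover less of it. Those of Fam222b and Ccnl2, also among the 20, lie wholly inside theirs too and are not shown. The 4 are RefSeq sequence on GRCm38.p6 (mm10), 5′ to 3′ on the gene's strand, in lower case, with capitals for an E2-box (CACCTG) or a CCAAT box (CCAAT) on either strand.
Mtm1, chrX:71214756-71215005, plus strand: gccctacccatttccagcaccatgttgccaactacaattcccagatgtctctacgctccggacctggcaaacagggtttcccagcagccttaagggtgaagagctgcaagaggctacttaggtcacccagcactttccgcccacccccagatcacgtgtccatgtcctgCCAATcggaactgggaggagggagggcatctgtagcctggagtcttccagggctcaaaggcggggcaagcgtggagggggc
Fpgs, chr2:32694176-32694425, minus strand: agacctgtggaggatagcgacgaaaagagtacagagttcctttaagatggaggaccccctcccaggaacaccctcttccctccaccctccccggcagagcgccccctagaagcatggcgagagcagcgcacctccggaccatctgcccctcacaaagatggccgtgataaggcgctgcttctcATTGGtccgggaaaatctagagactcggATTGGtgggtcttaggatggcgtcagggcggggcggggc
Pfkfb2, chr1:130715822-130716071, minus strand: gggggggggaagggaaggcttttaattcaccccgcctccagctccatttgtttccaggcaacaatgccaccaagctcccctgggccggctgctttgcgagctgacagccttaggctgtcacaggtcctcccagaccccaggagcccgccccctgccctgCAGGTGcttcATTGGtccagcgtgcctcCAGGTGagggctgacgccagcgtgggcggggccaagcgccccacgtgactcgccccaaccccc
Pdxp, chr15:78913669-78913918, plus strand: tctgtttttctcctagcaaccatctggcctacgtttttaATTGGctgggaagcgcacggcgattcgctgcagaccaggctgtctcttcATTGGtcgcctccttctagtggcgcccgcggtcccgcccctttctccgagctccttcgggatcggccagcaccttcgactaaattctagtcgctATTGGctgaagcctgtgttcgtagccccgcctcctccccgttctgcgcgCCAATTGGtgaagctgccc

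The Pfkfb2 sequence holds 2 E2-boxes and 1 CCAAT box, Pdxp holds 5 CCAAT boxes of which 2 overlap, Fpgs holds 2 and Mtm1 holds 1. Mtm1 encodes myotubularin, a phosphoinositide phosphatase. Fpgs adds glutamate residues to folate, Pfkfb2 makes and breaks down the glycolytic activator fructose 2,6-bisphosphate, and Pdxp removes phosphate from pyridoxal phosphate. Over all 407 start windows that overlap the regions, the median GC content was 62.7%, against 63.3% in the 534 windows of distal regions held by all 4 libraries and 53% in all 32585 windows. The observed to expected CpG ratio was over 0.6 in 63.9% of the windows in regions absent from control 1, in 79.0% of those held by all 4 and in 36% of all windows. On either strand, CACCTG stood in 22.4% of them, against 15.9% of the windows held by all 4 and 20.3% of all windows of this length. The ETS form ACAGGAAG stood in 5.41%, 3.18% and 3.6% of the same 3 sets of windows, and a second ETS form, CCGGAAGT, in 6.63%, 6.74% and 3.92%. A GATA motif stood in 5.16%, 2.43% and 11.2%, a SOX motif in 0.491%, 0.562% and 1.06%, and a FOX motif in 2.21%, 2.43% and 3.67%. A KLF motif stood in 4.18%, 10.7% and 5.78%. CCAAT stood in 33.9%, 42.5% and 37.6%, and GGGCGG, which is bound by SP and KLF factors, in 59.5%, 71.5% and 35.9%. These are among 16 motifs searched. CCAAT and GGGCGG were added after the sequences had been seen. These matches are descriptions of letters in start windows only, since the sequence of the other 1451 regions was not used here.

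The 4 lists differed in length, and control 1 was the shortest. Zeb1-CKO 1 and Zeb1-CKO 2 had 13689 and 19886 peaks, and control 1 and control 2 had 7608 and 13672. All 4 lists ended just above a −log10 q of 1. The deposited lists give no read depth, so an absent peak cannot be told apart from too few reads. Control 1 also stood apart in what it listed alone: of 1884 regions held by control 1 and no other library, 96.8% were distal, against 76.2% for Zeb1-CKO 1, 82.7% for Zeb1-CKO 2 and 84.2% for control 2. With 2 libraries against 2, a two-sided exact permutation test cannot give a p below 0.333, and the rule sets 1 control against the 3 other libraries, so no region was tested and no difference between genotypes is drawn. When control 1 is left out, the pattern becomes presence in the 3 other libraries, which 3078 distal regions showed.

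Where a region was held by 3 libraries, the library without it was mostly control 1, and control 1 lacked a higher share of distal regions than of gene-end regions. Of 3075 distal regions held by both Zeb1-CKO libraries and control 2, control 1 lacked 57.8%. The same share was 4.42% for Zeb1-CKO 1 (60 of 1357), 3.14% for Zeb1-CKO 2 (42 of 1339) and 8.47% for control 2 (120 of 1417). At gene ends, meaning within 1 kb of an end of a protein-coding gene, control 1 lacked 2421 of 6244 regions, or 38.8%. The gene-end shares of the other libraries lay between 0.235% for Zeb1-CKO 2 and 1.62% for control 2. In all 4 libraries the distal share was the higher of the pair.

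**Figure D1:**
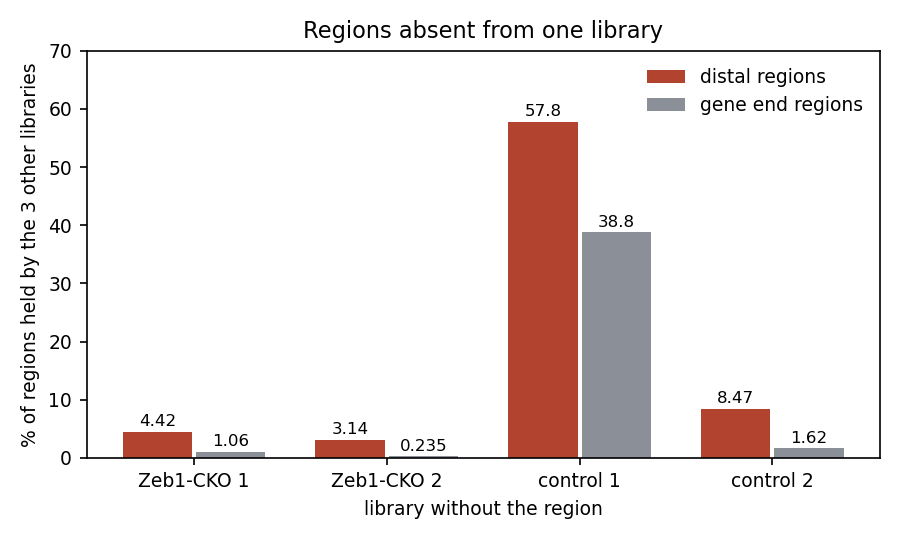
Percent of regions held by the 3 other libraries that the library named on the horizontal axis did not list, as bars for distal regions (left of each pair) and regions at gene ends (right). Control 1 lacked 57.8% of distal and 38.8% of gene-end regions, and no other library lacked more than 8.47% of either.

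The regions were mid-list to low-list peaks where they were listed. In each list every peak was placed by its −log10 q, and its place is given as a percentage from the top, so that a low value is a strong peak in that library. Fold enrichment and −log10 q are the authors' own values for each peak and were used only inside a list. The median place of the 1778 regions was 58.5% in Zeb1-CKO 1, 42.3% in Zeb1-CKO 2 and 59.5% in control 2. Distal regions held by all 4 libraries (n = 1297) had medians of 27.3%, 21.5% and 30.8% in the same lists. The authors' median fold enrichment in the regions absent from control 1 was 4.35 in Zeb1-CKO 1, 5.31 in Zeb1-CKO 2 and 4.87 in control 2, and in those held by all 4 it was 5.14, 6.46 and 5.99. Only 1.52%, 3.43% and 1.24% of the regions absent from control 1 were in the top 10% of these 3 lists, against 19.2%, 25.2% and 15.3% of those held by all 4. These places come from the peak calls that also chose the regions, so they describe the regions and test nothing.

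**Figure D2:**
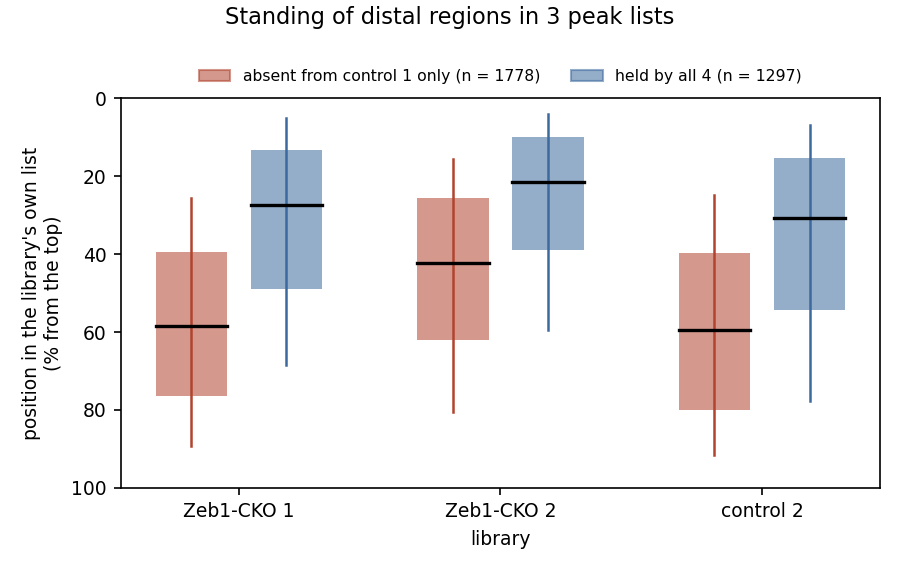
Place of distal regions in the peak lists of Zeb1-CKO 1, Zeb1-CKO 2 and control 2, in percent from the top with strong peaks upward, for regions absent from control 1 only (red, left) and regions held by all 4 libraries (blue, right). Black bars are medians, boxes the middle 50% of regions and lines the range between percentiles 10 and 90. The red medians, 58.5%, 42.3% and 59.5%, lie lower in every list than the blue ones, 27.3%, 21.5% and 30.8%.

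A region's weakest place over its 3 lists, which is the highest of its 3 percentages, ran from 1.43% to 100%, with a median of 75.6%. It lay in the top 25% for 41 of the 1778 regions, against 362 of the 1297 held by all 4. Across the regions, places in Zeb1-CKO 1 and Zeb1-CKO 2 had a Spearman correlation of 0.483, those in Zeb1-CKO 1 and control 2 of 0.267, and those in Zeb1-CKO 2 and control 2 of 0.309. All 3 values are over n = 1778 regions that share the rule and the libraries' depth, and they are given as descriptions. In 1773 of the regions each library had a single peak, and the median share of a region covered by its peak was 79.8% in Zeb1-CKO 1, 87.1% in Zeb1-CKO 2 and 66.8% in control 2.

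The share of regions absent from control 1 followed the weakest place in the 3 other lists. Among distal regions whose weakest place was in the top 10% of a list, control 1 lacked 0.840% of 119. In the next step of 10% it lacked 9.36% of 171, in the fifth step 52.1% of 261, and in the last step 85.1% of 462. Regions at gene ends began at 0.718% of 696 and ended at 80.7%. The distal share was the higher one in each of the 10 steps.

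**Figure D3:**
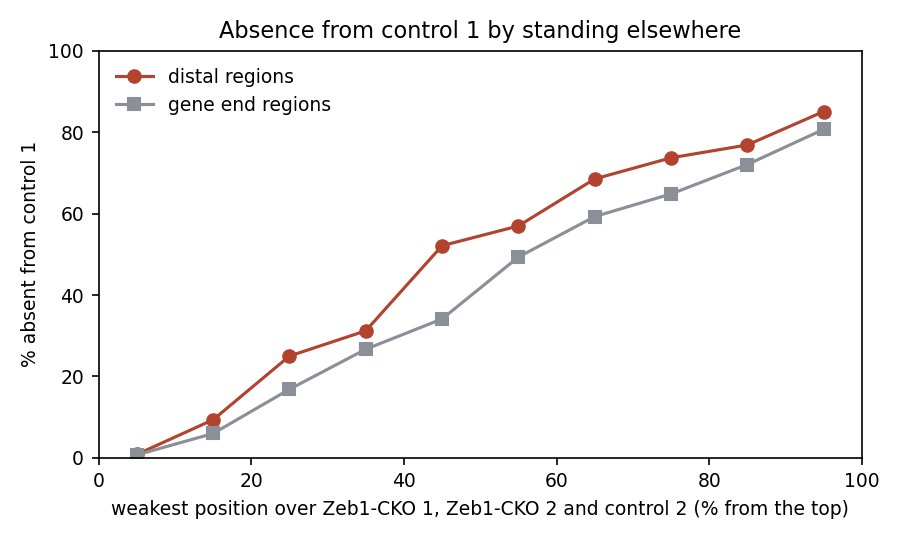
Percent of regions absent from control 1 (vertical axis) in 10 equal steps of the weakest place over Zeb1-CKO 1, Zeb1-CKO 2 and control 2 (horizontal axis, percent from the top), for distal regions (circles) and gene-end regions (squares) held by those 3 libraries. The distal line starts at 0.840% and ends at 85.1%, and the gene-end line lies below it throughout.

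Most of the regions lay inside genes. Of the 1778, 1073 (60.3%) were in the body of a protein-coding gene and 705 were outside, 226 of them within a noncoding gene. The median distance to the nearest end of a protein-coding gene was 15783 bp, the middle 50% lay between 5884 and 42106 bp, 21.2% lay within 5 kb and 20.6% beyond 50 kb. Distal regions held by all 4 libraries were nearer, with a median of 11333 bp and 57.9% in gene bodies. Over all distal regions the median was 20362 bp and 55.7% lay in gene bodies. The median width of a region was 512 bp, against 653 bp for those held by all 4 and 346 bp over all distal regions.

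A RefSeq start window overlapped 18.4% of the regions absent from control 1 and 32.2% of the distal regions held by all 4. It overlapped 7.76% of the distal regions held by both Zeb1-CKO libraries alone and 8.56% of all distal regions. Read the other way, control 1 lacked 43.9% of the 745 distal regions with a start that the 3 other libraries held, and 62.3% of the 2330 without one. The 327 regions with a start lay in gene bodies in 81.3% of cases and had a median width of 557 bp. The 1451 without one lay in gene bodies in 55.6% of cases, at a median of 18153 bp from the nearest gene end.

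The regions were spread over all chromosomes. Chromosome 11 had the most, 148, which were 15.1% of its distal regions, and chromosome 13 had the lowest share, 8.64% (62 regions). On X there were 25, or 9.09%. Few stood close together: 1641 had no other such region within 10 kb, and the other 137 formed 64 pairs and 3 groups of 3, at Reep3, Trerf1 and Ski. The nearest control 1 peak was a median of 49514 bp away, within 10 kb for 235 regions (13.2%) and within 1 kb for 7, the closest being 557 bp from a region in Nfia. Regions just inside the distance rule lay 1006 bp from an end of Cgn, 1006 bp from Nfic and 1017 bp from Sh2b1. Regions of the same pattern just outside it lay 982 bp from an end of Cbarp, 981 bp from Frem2 and 981 bp from Zfp688.

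The 20 regions with the best weakest place, which ran from 1.43% to 21.0%, are named by the gene they lie in or nearest to. Of these 20, 14 lay in gene bodies and 7 overlapped a RefSeq start window. The windows were those of Mtm1, Fpgs, Pfkfb2, Fam222b, Pdxp and Ccnl2 and of the noncoding gene Gm12915 within Inpp5b. The Gm12915 start itself lay outside the region, which took in only bases upstream of it. The peak in the Mtm1 start stood at 10.9% and 10.1% in Zeb1-CKO 1 and Zeb1-CKO 2 and at 11.9% in control 2, with fold enrichments of 8.07, 8.38 and 8.27. The Fpgs start stood at 14.0% and 7.83% in the Zeb1-CKO lists and at 4.48% in control 2. The Pfkfb2 start stood at 4.11% and 4.21% in the Zeb1-CKO lists and at 14.4% in control 2, and the Pdxp start at 6.60%, 7.78% and 16.6% in the same order. The nearest control 1 peak to any of these 4 was 17959 bp away, from the Pfkfb2 region.

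Among the best-placed regions that overlapped no listed start window were 2 at genes of integrins, the receptors by which cells hold to their matrix. The start table is not complete, so whether they hold a start is not known. The region in Itga6, an integrin chain that binds laminin, spanned chr2:71801680-71802074, 14794 bp from the nearest gene end, and stood at 14.8% and 13.5% in the Zeb1-CKO lists and 15.1% in control 2. Its fold enrichments were 6.63 and 7.98 in the Zeb1-CKO lists and 7.57 in control 2, so the 3 libraries that listed it placed it almost alike. The nearest control 1 peak was 127785 bp away. The region 7197 bp from an end of Itgav, an integrin chain that binds RGD-containing matrix proteins, spanned chr2:83714735-83715106 and stood at 21.0% and 14.3% in the Zeb1-CKO lists and 19.9% in control 2.

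Of the other best-placed regions, those at Celsr3 (an adhesion receptor of planar polarity), Spry4 (an inhibitor of receptor tyrosine kinase signalling), Tnfrsf8 (the CD30 receptor), Def6 (a guanine nucleotide exchange factor), Tmem179, Fam207a and Lrfn3 (a synaptic adhesion protein) lay 3987 to 10759 bp from the nearest gene end. The Spry4 region stood at 16.1% and 4.66% in the Zeb1-CKO lists and at 15.2% in control 2. The Lrfn3 region stood at 21.0% and 13.7% in the Zeb1-CKO lists and at 2.62% in control 2.

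Another 3 of the 20 were unlike the rest in shape. The region with the best place of all, chr9:3020059-3021063, lay near the centromeric end of the sequenced chromosome, with no gene end within 100 kb. It stood at 0.657% and 0.588% in the Zeb1-CKO lists and 1.43% in control 2, yet its fold enrichments were only 2.08 and 2.39 in the Zeb1-CKO lists and 2.39 in control 2, and it was the 1 region of the 1778 with a fold under 3 in all 3 lists. A control 1 peak lay 5721 bp from it. The regions near Fbln1 (chr15:85177651-85177885) and in Timd2 (chr11:46675806-46676043) had the same first and last base in all 3 libraries, which held for 2 of the 1778. Their fold enrichments were high, 14.8 and 11.9 in the Zeb1-CKO lists and 8.04 in control 2 near Fbln1, and 22.7, 15.8 and 7.95 in Timd2. No repeat or blacklist annotation was used here, so whether these 3 peaks come from repeated sequence was not tested.

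By gene, 1384 of 21631 protein-coding genes (6.4%) had at least 1 of the regions in the gene body or 10 kb on each side. Of these, 1203 had 1, 155 had 2 and 26 had 3 or more. Distal regions held by all 4 libraries reached 5.34% of genes by the same windows, and those held by both Zeb1-CKO libraries alone 5.93%. At the ends of the 1384 genes, no library had a peak in 548 (39.6%), all 4 had one in 344 (24.9%), and 213 (15.4%) had one in every library but control 1. Gene windows overlap, so a region can count for more than 1 gene, and which gene a region acts on is not known from these lists.

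The 10 genes with the most regions were long, at 66.2 to 603 kb against a median of 17.3 kb for all protein-coding genes. Tns1 (tensin, which links integrins to actin), Gse1 and Ski (an inhibitor of SMAD signalling) were among them, with 4 each. Distal regions in the Tns1 window numbered 8 and 14 in the Zeb1-CKO libraries, 1 in control 1 and 7 in control 2. The Gse1 window had 6 and 18 in the Zeb1-CKO libraries, 2 in control 1 and 14 in control 2. Window counts here and below include the chosen regions, which the rule leaves out of control 1. Part of each such contrast is therefore fixed by the rule. The best-placed of the 4 Tns1 regions stood at 22.9% and 17.5% in the Zeb1-CKO lists and at 24.3% in control 2, while the 4 Ski regions had weakest places between 82.7% and 93.3%. Hivep2, Mcph1, Mast4, Abhd2 and Synpo had 3 each. The Mcph1 window includes the Angpt2 region described further on.

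Endothelial genes had such regions more often than genes in general. The lists named here were chosen with earlier results of these data known, so the counts describe the lists and are not a test. Of 126 genes in 5 endothelial lists, 29 (23.0%) had at least 1 of the regions, against 6.4% of all protein-coding genes. The count depended on the lists used. With a −log10 q of at least 3 in the 3 listing libraries it was 12 (9.52%, against 2.80% of all genes), with the 7608 strongest peaks of each library 3 (2.38%, against 1.3%), and with a distance over 10 kb 13 (10.3%, against 2.37%). Without control 1 it was 49 (38.9%, against 10.9%) and without control 2 it was 53 (42.1%, against 11.1%). The 126 genes' windows took in 36 of the 1778 regions (2.02%), 30 of the 1297 held by all 4 (2.31%), and 35 of the 1791 held by both Zeb1-CKO libraries alone (1.95%). Distal regions of any pattern fell in these windows in 1.97% and 1.67% of cases in the Zeb1-CKO libraries, in 1.13% in control 1 and in 1.93% in control 2. Of the 1823 distal regions held by control 1 alone, 6 (0.329%) did so. Peaks at the ends of these 126 genes were listed for 68 and 78 genes in the Zeb1-CKO libraries, for 32 in control 1 and for 60 in control 2. The lists differ in length, and the matching shares of all protein-coding genes are not given here. Nothing about control 1 is therefore read from these end counts.

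**Figure D4:**
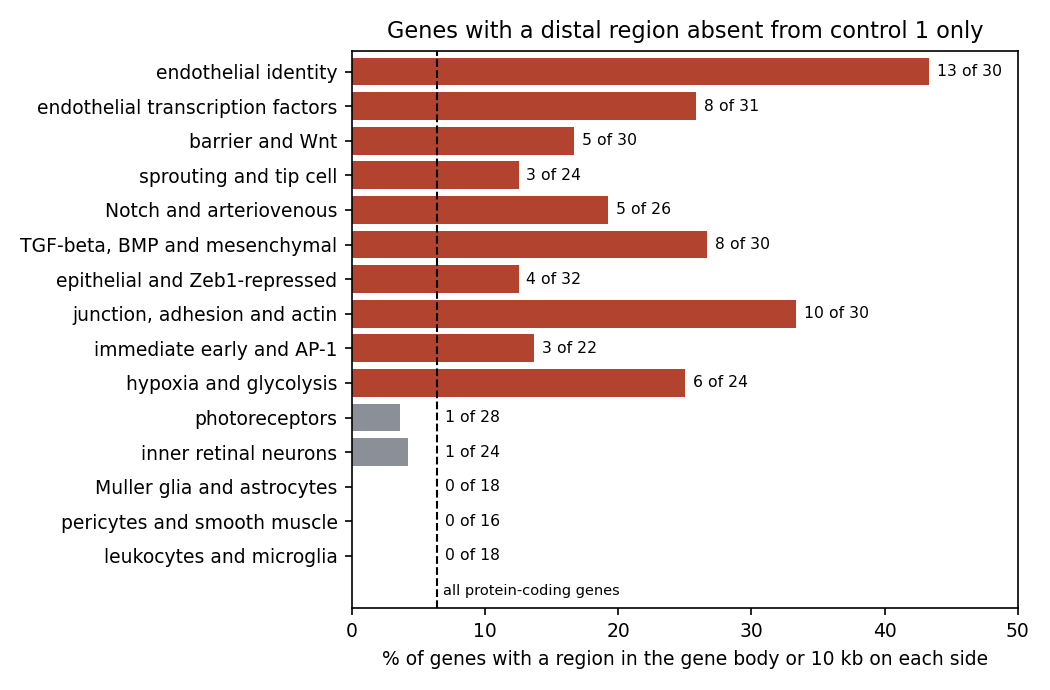
Percent of the genes of each list with at least 1 distal region absent from control 1 only in the gene body or 10 kb on each side, with the number of genes beside each bar. Red bars are lists of endothelial genes, pathways and epithelial genes, grey bars lists of other retinal cells, and the dashed line marks all protein-coding genes (6.4%). Endothelial identity has the longest bar, 13 of 30 genes, and 3 of the grey lists are at 0.

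Endothelial identity genes, the markers by which the cells are recognised, had the highest share, 13 of 30 genes (43.3%). Distal regions held by all 4 libraries were found at 12 of the 30 and regions held by both Zeb1-CKO libraries alone at 10. Counted per length of gene window, the list had 8.83 regions per Mb, against 1.08 for all protein-coding genes, and 6.04 per Mb of the regions held by all 4, against 0.835.

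Ets1, an ETS transcription factor of endothelial and blood cells, and She, an adaptor protein of endothelial cells, had 3 regions each. In the 3 Ets1 regions the places were 45.3%, 49.4% and 70.6% in Zeb1-CKO 1, 48.6%, 74.7% and 17.1% in Zeb1-CKO 2, and 32.2%, 69.9% and 76.0% in control 2. The Ets1 window had 5 distal regions in each Zeb1-CKO library, 1 in control 1 and 5 in control 2, so that 1 of its regions was held by all 4. The She window had 3 and 4 distal regions in the Zeb1-CKO libraries, 0 in control 1 and 4 in control 2. Neither gene had a peak within 1 kb of its outer limits in any library. Starts inside those limits were not covered by this count. The Ets1 region held by all 4 lay 59225 bp from the nearest limit. The start table is not complete, so whether that region holds a start is not known.

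Pecam1 (CD31, an adhesion receptor of endothelial junctions) and Eng (endoglin, a coreceptor for BMP9) had 2 regions each. The Pecam1 window had 4 and 3 distal regions in the Zeb1-CKO libraries, 0 in control 1 and 2 in control 2. Its 2 regions absent from control 1 alone had weakest places of 90.3% and 99.4%. They stood at 90.3%, 41.4% and 40.9%, and at 96.7%, 99.4% and 92.6%, in Zeb1-CKO 1, Zeb1-CKO 2 and control 2. In the Eng window, 3 and 4 distal regions were listed in the Zeb1-CKO libraries, 1 in control 1 and 4 in control 2. The Eng region of this pattern in the gene body stood at 65.9% and 68.9% in the Zeb1-CKO lists and at 34.8% in control 2. The second lay nearer to an end of the neighbouring Ak1.

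The other identity genes among the 13 had 1 region each. The rest of the 30, among them Cdh5, Kdr, Flt1, Tek and Tie1, had none. Sox17, a factor of arterial differentiation, had one 2409 bp from its nearest end that stood at 17.5% and 44.3% in the Zeb1-CKO lists and 47.9% in control 2. The region counted for Robo4, a guidance receptor that stabilises vessels, lay within the neighbouring Robo3 and stood at 35.4%, 35.0% and 49.5% in the same lists. At Rasip1 (a regulator of vascular lumen formation), Vwf (von Willebrand factor) and Plvap (the diaphragm protein of fenestrae) the weakest places were 56.2%, 57.7% and 63.6%, the Plvap region lying in the neighbouring Ccdc194. Those of Emcn, Tal1, Icam2 and Erg were all beyond 92%, near the bottom of at least 1 list.

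**Figure D5:**
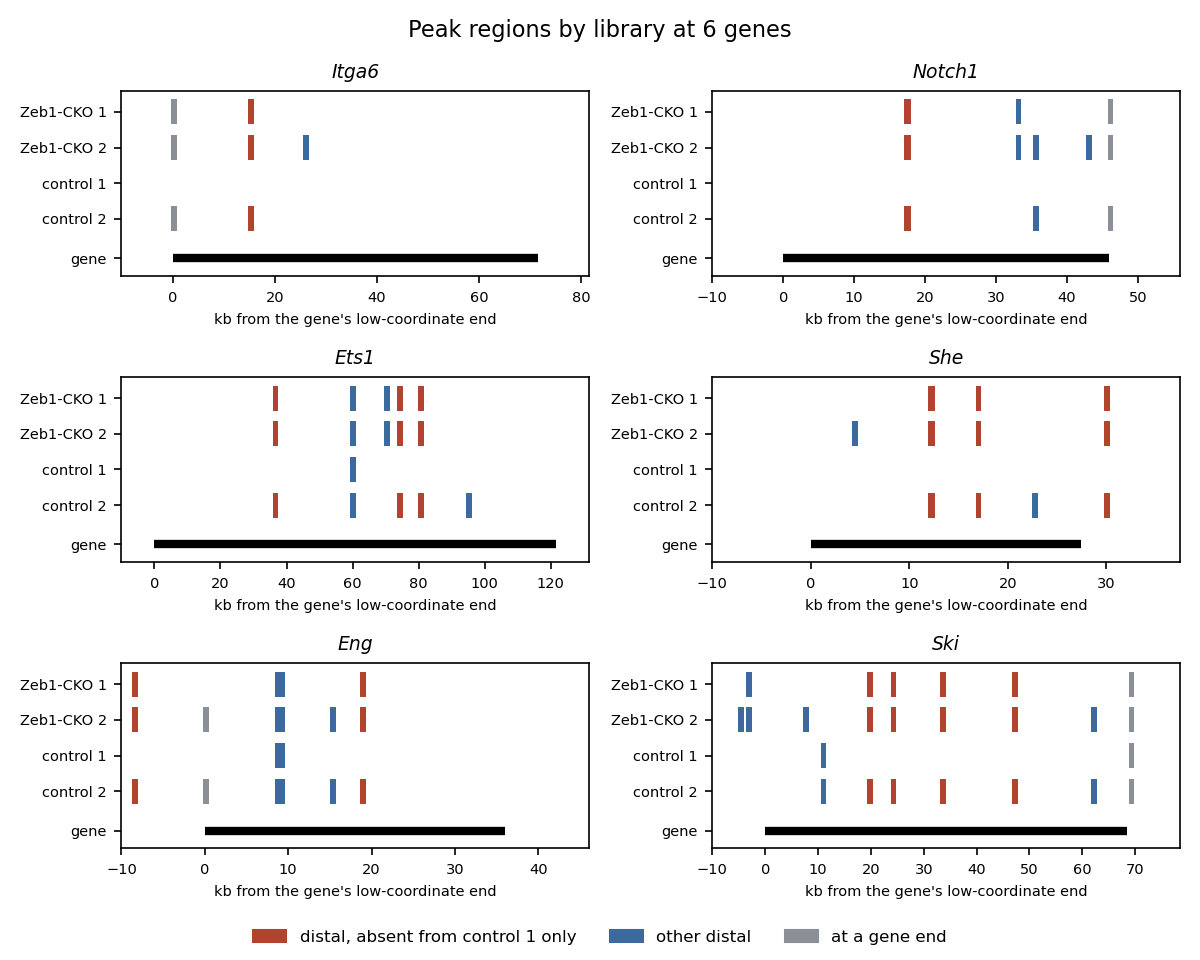
Peak regions by library (rows, Zeb1-CKO 1, Zeb1-CKO 2, control 1 and control 2 from the top) at 6 genes, in kb from the low-coordinate end of the gene, with the gene body as a black bar. Red marks distal regions absent from control 1 only, blue other distal regions and grey regions at a gene end, and narrow regions are drawn at a minimum width. The red regions number 1 at Itga6, 1 at Notch1, 3 at Ets1, 3 at She, 2 at Eng and 4 at Ski, and the control 1 row has none of them.

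Endothelial transcription factors had a region at 8 of 31 genes (25.8%). Distal regions held by all 4 libraries were found at 7 of the 31, and those held by both Zeb1-CKO libraries alone at 9. The 8 genes were Ets1, Sox17, Tal1, Erg, Epas1 (the hypoxia-inducible factor HIF-2α), Klf2 (a flow-responsive factor), Foxc1 and Gata2. The Epas1 region stood at 47.2% and 55.3% in the Zeb1-CKO lists and at 34.1% in control 2, while the ends of Epas1, Klf2 and Foxc1 had peaks in all 4 libraries. At these 3 genes the gene end was listed in control 1 and the distal region was not. Gata2 had 1 and 5 distal regions in the Zeb1-CKO libraries, 0 in control 1 and 2 in control 2.

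Of the barrier and Wnt genes, 5 of 30 (16.7%) had a region, the same count as for distal regions held by all 4. Abcg2, an efflux transporter of the blood-brain and blood-retina barriers, had one that overlaps a RefSeq start window and stood at 42.3%, 50.1% and 18% in Zeb1-CKO 1, Zeb1-CKO 2 and control 2. Slc7a5, the large neutral amino acid transporter, had one at 24.5% and 25.8% in the Zeb1-CKO lists and at 83.1% in control 2. Sox17 and Lrp5 were also among the 5, the second being a Wnt coreceptor whose region had a weakest place of 97.8%.

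Sprouting and tip cell genes had regions at 3 of 24 genes (12.5%), while 8 of the 24 had a distal region held by both Zeb1-CKO libraries alone and 4 had one held by all 4. Angpt2, the angiopoietin that destabilises vessels, had a region 21392 bp from its nearest end at chr8:18711655-18712060, which stood at 18.3% and 26.9% in the Zeb1-CKO lists and 33.9% in control 2. Col4a2, a basement membrane collagen, had 2, the better at 27.9% and 22.6% in the Zeb1-CKO lists and 65.0% in control 2. The Igfbp3 region was among the weakest, at 99.4% in control 2.

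Notch and arteriovenous genes had regions at 5 of 26 genes (19.2%), the same count as for distal regions held by all 4. Distal regions held by both Zeb1-CKO libraries alone were found at 7 of the 26. The region in Notch1, the receptor through which tip cells restrain their neighbours, was the best placed of all regions in the endothelial lists. It spanned chr2:26474962-26475855, 17060 bp from the nearest gene end, and stood at 23.9% and 10.9% in the Zeb1-CKO lists and 11.3% in control 2. The Notch1 window had 2 and 4 distal regions in the Zeb1-CKO libraries, 0 in control 1 and 2 in control 2, and its gene end was listed in every library but control 1. The Notch ligands Jag2 and Jag1 had weakest places of 74.2% and 97.1%, the Notch target Hes1 79.1%, and Acvrl1 (ALK1, a BMP9 receptor) 90.5%.

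TGF-beta, BMP and mesenchymal genes had regions at 8 of 30 genes (26.7%), against 3 of 30 with a distal region held by all 4. They included a ligand, Tgfb2, the receptors Eng, Acvrl1 and Bmpr2, the signal transducer Smad1, the inhibitory Smad7 and the target Id1. Bmpr2, the type II BMP receptor, had a region at 40.9% and 28.0% in the Zeb1-CKO lists and 16.8% in control 2. Id1, a direct BMP target that inhibits helix-loop-helix factors, had 2 regions. They stood at 22.2% and 26.0%, and at 32.0% and 26.7%, in Zeb1-CKO 1 and Zeb1-CKO 2, and at 91.3% and 95.1% in control 2. Places come from separately called lists, so whether the Id1 regions differ between libraries was not tested. Smad1 stood at 55.2%, 57.9% and 43.5% in Zeb1-CKO 1, Zeb1-CKO 2 and control 2.

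Junction, adhesion and actin genes had the second highest share, 10 of 30 genes (33.3%), against 4 of 30 with a distal region held by all 4. The genes of this list are long, with a median of 70.3 kb against 17.3 kb for all protein-coding genes, and per Mb of window the list had 4.17 regions. Rapgef1, an exchange factor for the junctional GTPase Rap1, had 2, and the better placed, at chr2:29643413-29643858, stood at 22.5% and 14.2% in the Zeb1-CKO lists and 17.2% in control 2. Its window had 3 and 6 distal regions in the Zeb1-CKO libraries, 0 in control 1 and 4 in control 2. Myh9 (nonmuscle myosin IIA) had 2, and the GTPase Rac1 had one at 35.8% and 19.9% in the Zeb1-CKO lists and 61.5% in control 2. The others besides Itga6 and Itgav were Ctnnd1 (p120-catenin, which stabilises VE-cadherin), Flna, Itga5, Actn4 and Cdc42, with weakest places from 69.1% to 96.4%.

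Epithelial genes, the class that Zeb1 is known to repress, had regions at 4 of 32 genes (12.5%), against 6 of 32 with a distal region held by both Zeb1-CKO libraries alone. Since the regions are listed in control 2 as well, they are not regions listed in Zeb1-CKO libraries alone. Cgn, the tight junction protein cingulin, had a region with a RefSeq start 1006 bp from its end, at 34.8% and 21.2% in the Zeb1-CKO lists and 42.0% in control 2. Cldn4, an epithelial claudin, had one at 42.2% and 29.4% in the Zeb1-CKO lists and 93.6% in control 2, and its gene end was listed in both Zeb1-CKO libraries and in neither control. Marveld2 (tricellulin) stood at 52.0% and 84.1% in the Zeb1-CKO lists and 36.4% in control 2. The region counted for Ovol1, an epithelial zinc-finger repressor, lay at the start of the neighbouring Ap5b1 and stood at 53.9% and 44.2% in the Zeb1-CKO lists and 89.7% in control 2.

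Hypoxia and glycolysis genes had regions at 6 of 24 genes (25%), against 7 of 24 with a distal region held by all 4. Pfkfb3, the glycolytic activator of sprouting endothelium, had one 18233 bp from its nearest end at 45.1% and 25% in the Zeb1-CKO lists and 18.2% in control 2. Ldha, lactate dehydrogenase A, had 2, of which one overlapped a RefSeq start window of the gene and stood at 64.5%, 18.9% and 18.5% in the same lists. The other 4 genes were Epas1, Hif1a, Hif3a and Pfkl. Immediate early genes had regions at 3 of 22 (13.6%), Klf2, Dusp1 and Ier3, while 9 of the 22 had a distal region held by all 4. Per Mb of their short windows that was 4.88 regions absent from control 1 alone and 19.5 held by all 4, the reverse order of the identity list.

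By share of genes, other retinal cells had such regions less often than genes in general. Of 104 genes in 5 lists, 2 (1.92%) did, against 6.4% of all protein-coding genes. Per Mb of gene window, the photoreceptor list had 1.13 regions and the list of inner retinal neurons 0.626, against 1.08 for all protein-coding genes. Abca4, a photoreceptor transporter, had 2 regions, but its window was open in every library, with 5 and 7 distal regions in the Zeb1-CKO libraries, 3 in control 1 and 5 in control 2. Tfap2a, a factor of amacrine and horizontal cells, had 1 region at 49.8%, 49.7% and 74.5% in Zeb1-CKO 1, Zeb1-CKO 2 and control 2. The lists of Muller glia and astrocytes (18 genes), pericytes and smooth muscle (16) and leukocytes and microglia (18) had none. These lists also had no distal region held by all 4 libraries or by both replicate 2 libraries alone. Only 1 of their genes, in the pericyte list, had a distal region held by both Zeb1-CKO libraries alone. Over all 104 genes, peaks at gene ends were listed for 10 and 22 genes in the Zeb1-CKO libraries, for 9 in control 1 and for 19 in control 2. These end counts also lack the matching shares of all protein-coding genes, and nothing is read from them. Of the 28 photoreceptor genes, 9 had a distal region held by the replicate 2 libraries of both groups alone, against 4.85% of all protein-coding genes, and their part in the endothelial counts was not tested.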

How the data were processed

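ATAC-seq peak lists of 2 Zeb1-CKO and 2 control libraries of sorted retinal endothelial cells were used on mm10, and each library had its own list. The submitters' processing notes name MACS2 2.1.1, bedtools 2.26.0, Bowtie2 2.3.2, SAMtools 1.3, Trimmomatic 0.36 and Picard 2.9.2. Their roles, order, settings and the filter on peaks are not given in the sources used here, nor is any shift of reads for the transposase. In the deposited lists each broad peak carries a −log10 p-value, a −log10 q-value and a fold enrichment, the ratio of its signal to background in the same library. The deposited score is 10 times the −log10 q, truncated and limited to 1000, in all but 4 peaks.

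Regions were merged and placed with Python 3.11.15, and functions were tested on simulated lists. Gene limits, start windows and microRNAs came from RefSeq tables on GRCm38.p6 (mm10). A peak's place in its list was set by −log10 q, then fold enrichment, then −log10 p. The members and the 15 gene lists (358 genes, 1 matched by a synonym) were chosen with earlier results of these data known. Named were the 20 regions with the best weakest place over 3 lists, the 10 genes with most regions and genes of the lists in order of number and place, and further list genes were named after their values were seen. Values of a few genes that these rules name are not reported here. No test was run over regions or genes. Alternatives were stricter q limits, equal list lengths, other distances, overlaps and gene windows, and each library left out. Depth is unknown, so no interval that needs it is given.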

Additional observations from a re-analysis of the deposited data

How the results depend on the processing

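All 5 results moved under some settings, the count of endothelial genes by the largest factor. Against 1778 regions, 1117 had the pattern with a −log10 q of at least 3 in all 4 libraries, 706 when that limit was set on the 3 listing libraries and control 1 was kept as deposited, 314 with the 7608 strongest peaks of each library, and 1089 with a distance over 10 kb. Leaving out a library gave 1938 to 3569 regions, with 3078 without control 1, 3569 without control 2 and 3115 without Zeb1-CKO 1. Of the 1778 regions, 39.7% overlapped one under the first limit and 17.7% under equal list lengths. Against 29 endothelial genes, the limit on the 3 listing libraries gave 12, equal lists 3 (Angpt2, Notch1 and Robo4) and the distance over 10 kb 13, while windows of 50 kb gave 52 and nearest genes 45. Leaving out a library gave 29 to 53, with 49 without control 1 and 53 without control 2. The share in gene bodies, 60.3%, became 57.0% over 10 kb, 64.2% when every gene in the table decided what is distal, and 55.6% without regions holding a RefSeq start, an alternative chosen after seeing the data, and 57.9% to 60.8% with a library left out. The median distance of 15783 bp became 14302 bp (limit in all 4), 20202 bp (over 3 kb), 33994 bp (over 10 kb), 8683 bp (every gene) and 18153 bp (no start), and 13702 to 17154 bp with a library left out. The median weakest place of 75.6% became 50.2% and 53.4% under the first and second limit, 40.1% with equal lists, 68.2% where each library had to cover 50% of the region, and 64.6% to 74.0% with a library left out. The distance settings and limits change these values by their own construction. Equal list lengths, wider gene windows and leaving out a library also change what is counted by construction. How far the shifts go beyond that was not tested, nor was the cause under the remaining settings. In all, 44 of the alternative values stayed close to the reported ones and 33 moved, among 5 results. Merging peaks within 1 kb gave 1783 regions, all sequences 1779, and no control 1 peak within 1 kb 1771.

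No paired analysis was possible because the pattern comes from no test. Motif searches in windows of other lengths were not run, as no genome sequence was used here. Read depth is unknown, the lists end near a q of 0.1, and the weakest regions sit at that limit in at least 1 library. The start table is not complete, and any overlap with a start window was counted, so the count of regions with a start is neither a lower nor an upper limit.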

Other observations

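MicroRNA genes were looked up after the regions were known. Of 1005 RefSeq hairpins, 36 (3.58%) lay within 10 kb of a distal region absent from control 1 only, and 3 overlapped one, Mir760, Mir7687 and Mirlet7i. The examples below were chosen after their values were seen. The region over Mirlet7i, chr10:122985563-122986397, had a weakest place of 76.6% over its 3 lists. A region at chr6:30174093-30175394, with a weakest place of 72.9%, lay 4356 bp from Mir183, 4542 bp from Mir96 and 8101 bp from Mir182. This cluster is known for its expression in photoreceptors. The same chr6 region overlapped a RefSeq start window of the noncoding gene Mirc35hg. Regions also lay 5897 bp from Mir146b, 7389 bp from Mir30a and 8874 bp from Mir21a, with weakest places of 72.0%, 28.0% and 76.8%. The mature 5p sequences, from RefSeq, are given 5′ to 3′ with the seed (bases 2 to 8) in capitals, to show which of them share most of it.
mmu-let-7i-5p: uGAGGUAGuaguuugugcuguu
mmu-miR-183-5p: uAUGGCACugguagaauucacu
mmu-miR-96-5p: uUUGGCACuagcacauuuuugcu
mmu-miR-182-5p: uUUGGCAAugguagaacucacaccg
mmu-miR-146b-5p: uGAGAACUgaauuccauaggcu
mmu-miR-30a-5p: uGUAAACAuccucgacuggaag
mmu-miR-21a-5p: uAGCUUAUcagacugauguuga
No seed was the same in any pair of these 7, and those of miR-183, miR-96 and miR-182 share the letters UGGCA. Which microRNAs are transcribed is not known from peak lists.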
